A study of Mus musculus with 22 samples.

Results

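The genes described here are the 4 Notch receptors *Notch1*, *Notch2*, *Notch3* and *Notch4* and the 4 Notch ligands *Dll1*, *Dll4*, *Jag1* and *Jag2*. They were taken by symbol as rows of a raw count table, and they make up 8 of its 24454 gene symbols. The table holds 22 bulk RNA-seq libraries of 25 cells each, sorted from the aorta-gonad-mesonephros (AGM) region of C57BL/6 embryos, where the first haematopoietic stem and progenitor cells (HSPCs) bud from the wall of the dorsal aorta. All cells carried the endothelial surface protein VE-Cad (*Cdh5*), and none were cultured or treated. CD44 and Kit staining split them into CD44Neg (labelled endothelial, with 4 E9.5, 3 E10 and 3 E11 libraries), CD44LowKitNeg (labelled hemogenic endothelial, with 1 E9.5, 2 E10 and 3 E11 libraries), CD44LowKitPos (labelled pre-HSPC, with 1 E9.5 and 2 E10 libraries) and CD44High (labelled HSPC, with 3 E11 libraries). Replicate numbers run from 1 to 22 over all libraries. The titles of all CD44LowKitPos and CD44High libraries carry the mark KG, and no CD44Neg or CD44LowKitNeg title does. What it stands for is not given, so these populations and this mark cannot be told apart. The labels do not say whether libraries came from separate embryos, so p-values measure the spread between libraries only.

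Notch signalling passes between touching cells. A ligand of the Delta-like or Jagged family on the surface of a cell binds a Notch receptor on its neighbour, and the receptor is cut so that its intracellular part enters the nucleus, joins the DNA-binding protein RBPJ and switches on HES and HEY repressor genes. In the embryonic aorta this pathway sets arterial identity and is needed for hemogenic endothelium to give rise to definitive blood stem cells. NOTCH1 and NOTCH4 are the receptors best known from endothelium, NOTCH3 from the smooth muscle cells around arteries, and DLL4 is the arterial ligand.

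The genes lie at 8 separate places of the mouse genome (mm10, GENCODE M21 annotation). *Notch1* is at chr2:26457903-26516663 on the minus strand, *Notch2* at chr3:98013527-98150361 on the plus strand, *Notch3* at chr17:32120820-32166852 on the minus strand and *Notch4* at chr17:34564268-34588503 on the plus strand. Among the ligands, *Dll1* is at chr17:15367354-15376872 (minus), *Dll4* at chr2:119325784-119335962 (plus), *Jag1* at chr2:137081456-137116644 (minus) and *Jag2* at chr12:112907819-112929776 (minus). Overlapping genes that the count table also lists are *Mir6996* in *Notch1*, *Mir6941* in *Jag2* and *Gm14207*, on the opposite strand of *Dll4*. The strand setting of the counting is not given in the sources used here, so reads of *Dll4* and *Gm14207* may not be separable.

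Promoter sequences are shown for *Jag1*, the gene that set CD44LowKitNeg apart, for *Dll4* and *Notch4*, which fell with it in the Kit-positive cells, and for *Notch2*, the member that rose in CD44High at E11. They come from RefSeq (GRCm38.p6), read 5′ to 3′ on the gene's strand, and stop before the first transcribed base. Capitals mark the GC box GGGCGG, the core of the site bound by SP1-type factors, on either strand.
*Jag1*, chr2:137116645-137116770, minus strand: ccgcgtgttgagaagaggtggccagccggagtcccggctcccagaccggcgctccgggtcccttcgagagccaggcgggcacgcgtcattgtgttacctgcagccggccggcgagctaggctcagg
*Dll4*, chr2:119325534-119325783, plus strand: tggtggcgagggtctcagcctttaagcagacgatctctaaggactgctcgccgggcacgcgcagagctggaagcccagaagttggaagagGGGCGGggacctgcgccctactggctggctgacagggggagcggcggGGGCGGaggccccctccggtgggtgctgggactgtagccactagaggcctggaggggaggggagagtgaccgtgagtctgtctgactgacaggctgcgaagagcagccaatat
*Notch4*, chr17:34564045-34564267, plus strand: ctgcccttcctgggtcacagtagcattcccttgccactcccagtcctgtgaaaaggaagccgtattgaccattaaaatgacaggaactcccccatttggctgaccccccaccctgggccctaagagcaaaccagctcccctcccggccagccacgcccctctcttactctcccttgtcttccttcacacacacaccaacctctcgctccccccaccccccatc
*Notch2*, chr3:98013288-98013526, plus strand: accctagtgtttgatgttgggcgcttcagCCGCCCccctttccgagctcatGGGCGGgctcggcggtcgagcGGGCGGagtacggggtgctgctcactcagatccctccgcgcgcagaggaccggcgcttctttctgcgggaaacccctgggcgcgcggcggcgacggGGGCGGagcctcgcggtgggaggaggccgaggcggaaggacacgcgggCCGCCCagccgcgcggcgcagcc
The *Notch2* window holds 5 GC boxes and the *Dll4* window 2, where 31.2% and 32.7% of 32851 mouse promoter windows of the same lengths hold at least 1. The *Jag1* and *Notch4* windows hold 0, against shares of 13.5% and 28.9%. RBPJ's core motif TGGGAA was found on neither strand of these 4 windows, and 11.8% to 21.6% of windows of the same lengths hold it.

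Between 3912350 and 8657546 reads were counted per library, and a count of 0 allows up to 3 counts, or 0.348 to 0.816 CPM, the count scaled to library size. This limit covers counting error only, since the reads carry no molecular identifiers. Levels are CPM after TMM scaling (normalized CPM), and errors are SDs between libraries. Replicates of the same population and stage differed by 17.2 to 86.3 chi-square units per degree of freedom over 20 pairs, far more than sampling noise. CD44Neg replicate 6 stood apart from the 3 other E9.5 libraries of its population, with 61.5 to 86.3 units against 17.4 to 20.6 among them, and of all CD44Neg libraries it had the fewest genes with counts (10825, against 11307 to 11993) and the smallest share of the ribosomal RNA gene *Rn45s* (1.92%, against 9.11% to 19.3%). Summed over 8 endothelial markers, levels were 2684 to 5324 normalized CPM in CD44Neg, 3258 to 8226 in CD44LowKitNeg, 713 to 1646 in CD44LowKitPos and 13.9 to 74.0 in CD44High, where *Cdh5* itself was at 0 in all 3 libraries. CD44High thus went against the VE-Cad gate at the RNA level. Its 8 macrophage markers summed to 1683 to 4525 normalized CPM, against at most 53.9 in any other library, and *Adgre1*, *C1qa*, *C1qb* and *C1qc* were at 0 in all 19 others. In bulk samples, fewer cells expressing a gene and less RNA per cell cannot be told apart.

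*Notch1* had the highest mean level per kilobase of exon among the receptors in both endothelial populations. In normalized CPM, its level was 24.6 in the lowest CD44Neg library, 146 at the median and 184 in the highest. In CD44LowKitNeg it was 91.2 at E9.5, 106 and 132 at E10, and 217, 319 and 262 at E11. CD44LowKitPos had 67.8 at E9.5 and only 14.9 and 18.9 at E10, and CD44High had 4.75, 18.4 and 17.1. The endothelial libraries thus sat above every CD44High library, while the E9.5 CD44LowKitPos library lay within the CD44Neg range. *Notch4*, a receptor largely restricted to endothelium, followed the same order of populations. It ranged from 14.6 to 46.0 in CD44Neg with a median of 33.4, and was 13.6 at E9.5, 35.4 and 55.6 at E10, and 71.8, 57.2 and 73.3 at E11 in CD44LowKitNeg. The CD44LowKitPos libraries had 10.3 at E9.5 and 0.620 and 1.33 at E10, and the CD44High libraries 1.39, 0 and 0.544. No CD44LowKitPos or CD44High library reached the lowest endothelial one.

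*Notch2*, a receptor used in many tissues and in blood cells, ran the other way. It lay between 9.59 and 61.1 normalized CPM in CD44Neg with a median of 20.7. In CD44LowKitNeg it was 48.3 at E9.5, 31.2 and 8.66 at E10, and 3.63, 20.2 and 19.1 at E11. CD44LowKitPos had 34.98 at E9.5 and 41.3 and 53.4 at E10, and CD44High had 179, 168 and 49.8. The highest CD44Neg value, in replicate 6, exceeded all CD44LowKitPos libraries and the lowest CD44High library, so that the populations overlapped when stages were pooled. At E11 the 3 CD44High libraries stood above all 6 endothelial ones, an order whose share among all genes is not given here.

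*Notch3*, the mural cell receptor, was low outside CD44LowKitNeg. CD44Neg ranged from 0 to 16.3 normalized CPM with a median of 4.24. CD44LowKitNeg had 7.42 at E9.5, 15.6 and 14.3 at E10, and 44.1, 52.4 and 51.9 at E11. CD44LowKitPos had 1.71 to 4.22, and CD44High 1.90 to 8.52. Its CD44LowKitNeg level was thus split by stage, with the E11 libraries all far above the early ones. Over 10 mesenchymal and mural markers, CD44LowKitNeg libraries summed to 159 to 358 normalized CPM, mostly from *Acta2* and *Tagln*, against 0.465 to 126 in CD44Neg, and *Col1a1* was at 0 in all 16 libraries of both. *Pdgfrb*, the receptor of pericytes, was at 2.91 ± 5.27 in CD44LowKitNeg, with 3 of 6 libraries at 0 and 13.5 in the highest, against 0.0557 ± 0.131 in CD44Neg. The marker sum of CD44LowKitNeg was 159 to 201 at E11 and 237 to 358 at E9.5 and E10. *Pdgfra*, *Cspg4* and *Rgs5*, markers of mesenchyme and pericytes, were at 0 in all 3 E9.5 and E10 CD44LowKitNeg libraries. At E11 *Pdgfra* reached up to 10.1 and *Rgs5* up to 9.55. *Cspg4* reached 0.155 at most, which is below the limit of 3 counts. These 3 were picked from the 10 markers, whose sum was lower at E11. The part of these markers in the level of *Notch3* was not tested.

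**Figure D1:**
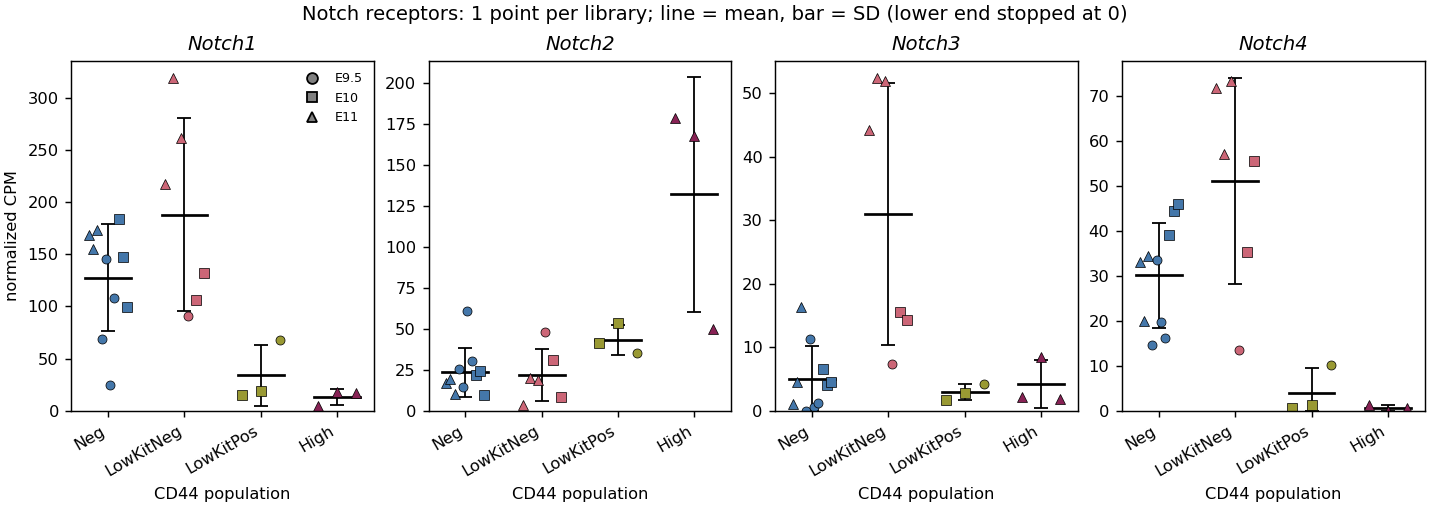
Normalized CPM of the 4 receptors (vertical axes, linear and separate for each gene) in every library of the 4 populations (horizontal axis), with circles for E9.5, squares for E10 and triangles for E11, a line at the mean and a bar of 1 SD whose lower end stops at 0. *Notch1*, *Notch3* and *Notch4* peak in the E11 CD44LowKitNeg libraries, while *Notch2* peaks in CD44High at 49.8 to 179.

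*Jag1*, a Jagged-family ligand made by arterial endothelium and smooth muscle, had the highest mean level per kilobase of exon of all 8 members in CD44LowKitNeg. In CD44Neg it was close to *Dll4*, with means of 15.4 and 14.6 and medians of 15.3 and 16.2 normalized CPM per kilobase, and *Dll4* was above *Jag1* in 5 of 10 libraries. Without CD44Neg replicate 6 the means were 13.7 for *Jag1* and 15.5 for *Dll4*. Its level in CD44LowKitNeg was 496 normalized CPM at E9.5, 787 and 646 at E10, and 813, 1068 and 1052 at E11. In CD44Neg it was 33.6 at the lowest, 89.0 at the median and 175 at the highest. The lowest CD44LowKitNeg library was therefore well above every CD44Neg library, a separation that 2.5% of all genes tested over these 16 libraries showed. In CD44LowKitPos it was 131 at E9.5 but 6.204 and 0.667 at E10, and CD44High had 28.7, 115 and 5.17. Within CD44High, the mesenchymal and mural marker sum was 1072 and 700 in replicates 20 and 21 and 0.272 in replicate 22, the library with the least *Jag1*. The part of these markers in the CD44High level of *Jag1* was not tested.

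*Dll4*, the ligand of arterial and sprouting endothelium, was at 8.72 to 115 normalized CPM in CD44Neg with a median of 62.6. CD44LowKitNeg had 50.2 at E9.5, 118 and 130 at E10, and 205, 161 and 108 at E11. CD44LowKitPos again held nearly all of its signal in the E9.5 library, with 33.3 against 1.40 and 3.34 at E10. All 3 CD44High libraries had 0 counts of *Dll4*. The E9.5 CD44LowKitPos library (replicate 19) had the highest level of *Notch1*, *Notch3*, *Notch4*, *Dll1*, *Dll4* and *Jag1* in its population, and its 6 arterial markers summed to 998 normalized CPM against 20.8 and 128 in the others. It is the sole CD44LowKitPos library of its stage, so stage and library cannot be told apart.

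*Jag2*, the second Jagged ligand, ranged from 1.79 to 25.4 normalized CPM in CD44Neg (median 10.1) and from 14.3 to 55.6 in CD44LowKitNeg (median 26.0). It was 4.07 at E9.5 and 6.204 and 10.4 at E10 in CD44LowKitPos, and 0, 2.66 and 1.09 in CD44High. Unlike the other ligands, it was not concentrated in the E9.5 CD44LowKitPos library. *Dll1*, the Delta-like ligand that also patterns the somites, varied widely between replicates. CD44Neg ranged from 0.446 to 28.8, and at E10 its libraries had 0.603, 23.3 and 0.446. CD44LowKitNeg had 0.116 at E9.5, 1.34 and 4.33 at E10, and 32.0, 12.9 and 13.01 at E11. *Dll1* was at 0 in all CD44High libraries and in both E10 CD44LowKitPos libraries, and at 1.36 in the E9.5 CD44LowKitPos library.

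**Figure D2:**
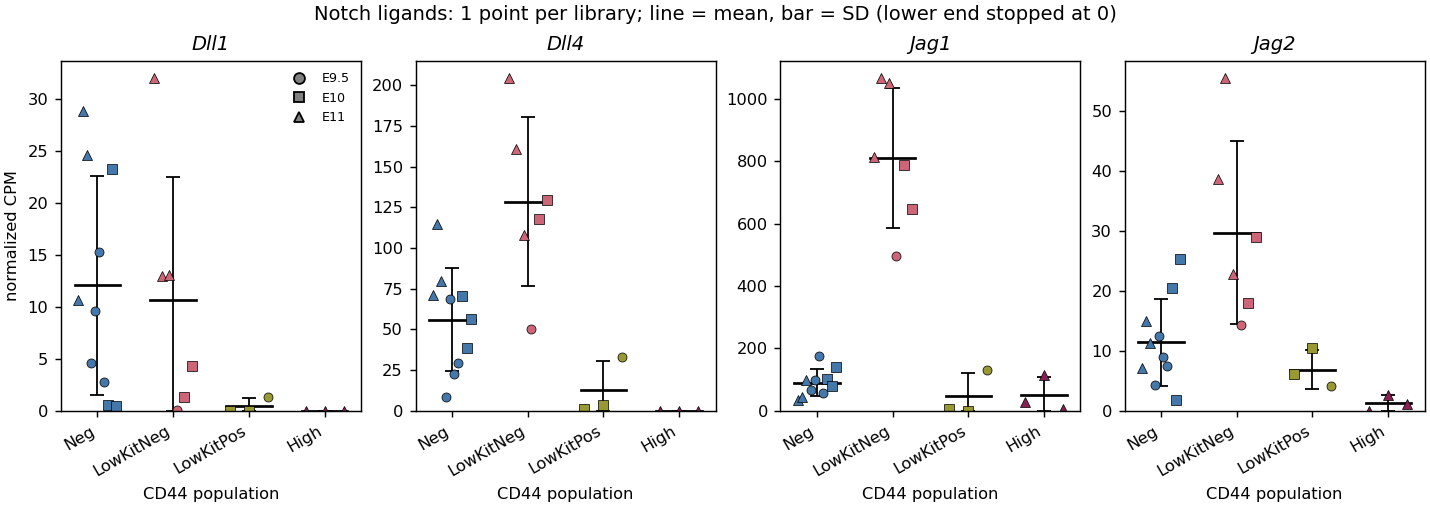
Normalized CPM of the 4 ligands (vertical axes, linear and separate for each gene) in every library of the 4 populations, with circles for E9.5, squares for E10 and triangles for E11, a line at the mean and a bar of 1 SD whose lower end stops at 0. The 6 CD44LowKitNeg libraries stand at 496 to 1068 for *Jag1*, above all others, and *Dll1* and *Dll4* are at 0 in all 3 CD44High libraries.

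The first comparison asked how the 2 endothelial populations of the AGM differ in Notch genes. Over the 10 CD44Neg and 6 CD44LowKitNeg libraries, *Jag1* was the member that rose, with 810 ± 224 normalized CPM (SD, n = 6) in CD44LowKitNeg against 89.6 ± 43.3 (n = 10) in CD44Neg. By the quasi-likelihood test of edgeR, adjusted by the Benjamini-Hochberg method over 11022 genes, its log2 fold change was 3.19 (SE 0.29) with an adjusted p of 8.04e-07. Of the 8 members, 1 was thus called at an adjusted p under 0.01, where 10.2% of all genes tested were called. The median log2 fold change of the members was 0.99, against 0.00503 over all genes. *Notch3* was at 31.0 ± 20.7 against 4.998 ± 5.20, a log2 fold change of 2.63 (SE 0.72) that missed the threshold with an adjusted p of 0.0134 from edgeR and passed it with DESeq2's Wald test (adjusted p = 0.00146) and in edgeR without CD44Neg replicate 3 (0.00568) or CD44LowKitNeg replicate 14 (0.00907). For *Dll4* the log2 fold change was 1.21 (SE 0.38) with an adjusted p of 0.0312 in edgeR and 0.00824 in DESeq2, and for *Jag2* it was 1.39 (SE 0.45) with an edgeR adjusted p of 0.0355. *Notch1* at 0.57 and *Notch4* at 0.77 also did not pass (edgeR adjusted p = 0.256 and 0.112). Differences of *Notch2* and *Dll1* were under 0.2 on the log2 scale and changed sign when single libraries were left out.

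Populations were not sampled evenly over the stages, so the other comparisons were taken within stage, from 1 fit of all 22 libraries with a mean for each population and stage. At E11, *Jag1* rose 16.5 times, from 59.4 ± 34.8 normalized CPM in CD44Neg to 978 ± 143 in CD44LowKitNeg (n = 3 each), with a log2 fold change of 4.04 (SE 0.78, edgeR adjusted p = 0.00278 over 12949 genes). It was the 1 member called, where 3.64% of all genes were. The call was lost without CD44Neg replicate 1 (log2 fold change 3.77, adjusted p = 0.0253) or replicate 2 (3.89, adjusted p = 0.0222), and the log2 fold change was 4.64 without CD44Neg replicate 3. For *Notch1*, *Notch3*, *Notch4*, *Jag1* and *Jag2* all 3 CD44LowKitNeg libraries lay above all 3 CD44Neg libraries, which is 5 of 8 members, while 13.3% of all genes showed that order. Endothelial markers summed to 6875 to 8226 in CD44LowKitNeg and 4666 to 5324 in CD44Neg at E11. The 6 arterial markers summed to 4470 to 5815 against 1069 to 1442, the 5 venous markers to 174 to 205 against 1069 to 1369, and the 10 mesenchymal and mural markers to 159 to 201 against 0.465 to 9.14. Their part in these differences was not tested.

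At E9.5 and E10, 2 of the 8 members and 2909 of all 12949 genes had an unadjusted edgeR p under 0.05. No member passed the edgeR threshold for the adjusted p, which 1.41% of all genes did. *Jag1* was nearest to it at 643 against 103 normalized CPM, with all 3 CD44LowKitNeg libraries above all 7 CD44Neg libraries (7.04% of all genes), a log2 fold change of 2.53 (SE 0.56) and an adjusted p of 0.0127. DESeq2's Wald test called *Jag1* in this comparison (adjusted p = 0.00711), and so did limma voom (1.1e-05). The other member under 0.05 before adjustment was *Dll1*, with 0.116 to 4.33 in CD44LowKitNeg and 0.446 to 23.3 in CD44Neg (edgeR adjusted p = 0.137). The 6 arterial markers summed to 2616 to 2964 in these CD44LowKitNeg libraries and 726 to 1145 in the CD44Neg ones, the 8 haematopoietic markers to 83.9 to 264 and 6.69 to 40.2, and the mesenchymal and mural markers to 237 to 358 and 4.70 to 126. Their part in the *Jag1* difference was not tested. *Notch1* (110 against 111 normalized CPM), *Notch4* (34.9 against 30.6) and *Notch2* (29.4 against 26.7) had log2 differences of −0.10, −0.28 and 0.33, fitted within each stage and averaged, so that the sign for *Notch4* is opposite to that of the pooled means. These were smaller than their SEs of 0.41, 0.47 and 0.56, and each took the opposite sign when 1 library was left out. For *Notch4* this was CD44LowKitNeg replicate 14, the sole E9.5 library of its population, so that fit compares E10 alone.

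The second comparison followed the Kit-positive step, from CD44LowKitNeg to CD44LowKitPos at E9.5 and E10 (3 libraries each). *Jag1*, *Dll4* and *Notch4* fell, 3 of the 8 members, where 2.9% of all genes were called and 2.01% were called as lower. The fitted log2 fold changes average the differences within the stages, so they are not the ratio of the pooled means. *Jag1* dropped from 496 to 131 normalized CPM at E9.5 and from a mean of 717 to 3.44 at E10, or from 643 to 46.0 over both (log2 fold change −5.79, SE 0.87, edgeR adjusted p = 3.62e-04), *Dll4* from 99.1 to 12.7 (−3.99, SE 0.60, 5.78e-04) and *Notch4* from 34.9 to 4.07 (−3.80, SE 0.61, 6.67e-04). Their falls were small at E9.5, with 50.2 against 33.3 for *Dll4* and 13.6 against 10.3 for *Notch4*, and lay mostly at E10, with means of 124 against 2.37 and 45.5 against 0.977. Without CD44LowKitPos replicate 19 the log2 fold changes were −7.77 for *Jag1*, −5.72 for *Dll4*, −5.53 for *Notch4* and −2.85 for *Notch1*. Without CD44LowKitNeg replicate 14 they were −7.73, −5.68, −5.50 and −2.81. Each is the sole E9.5 library of its population, so both fits dropped E9.5 and compare E10 alone. The log2 fold change of *Jag1* was −7.35 without CD44LowKitPos replicate 17. *Notch1* was at 33.9 against 110 and just missed the threshold (−2.02, SE 0.49, edgeR adjusted p = 0.0149), although its populations did not overlap. It was called by DESeq2's Wald test (adjusted p = 3.91e-04) and by edgeR with no filter on low counts (7.65e-05). In all, 6 members lay lower in every CD44LowKitPos library than in every CD44LowKitNeg library, against 11.8% of all genes, and the exceptions were *Notch2* and *Dll1*. *Notch2* had 43.2 against 29.4, with a log2 difference of 0.68 (SE 0.64, adjusted p = 0.624). The members' median log2 fold change was −2.84, against 0.0264 over all genes. Without CD44LowKitPos replicate 17 the calls of *Dll4* (adjusted p = 0.0127) and *Notch4* (0.0159) were lost, and without replicate 19 or CD44LowKitNeg replicate 14 *Notch1* was called as well (0.00881 and 0.00939). Endothelial markers were lower in the same libraries, with sums of 713 to 1646 against 3258 to 4456. Arterial markers were lower too, with 20.8 to 998 against 2616 to 2964. Haematopoietic markers were higher, with 446 to 1279 against 83.9 to 264. The part of these markers in the falls was not tested. In a fit of only these 6 libraries none of the 3 genes was called, with *Jag1* at an adjusted p of 0.0178, *Dll4* at 0.0178 and *Notch4* at 0.0322, and just 13 genes were called in all.

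Set against CD44Neg at E9.5 and E10 (7 libraries), CD44LowKitPos was lower in *Notch1* (log2 fold change −2.17, SE 0.46, edgeR adjusted p = 0.00408), *Notch4* (−3.96, SE 0.58, 1.78e-04), *Dll4* (−2.997, SE 0.55, 0.00165) and *Jag1* (−3.19, SE 0.74, 0.00854). These are 4 of the 8 members, where 4.63% of all genes were called, 2.94% as lower. *Dll1* was at 0.452 against 8.06 normalized CPM, with overlap, and did not pass in edgeR (adjusted p = 0.0181), but it was called by DESeq2's Wald test (2.11e-04), in edgeR with no filter on low counts (0.00296) and without CD44Neg replicate 10 (0.00979). Both E10 CD44LowKitPos libraries were at 0, so its fitted fold change is not given. At E10 the means were 3.44 against 107 normalized CPM for *Jag1* and 2.37 against 55.2 for *Dll4*. At E9.5 the single CD44LowKitPos library had 131 of *Jag1* against a CD44Neg mean of 99.3, and 33.3 of *Dll4* against 32.4, so neither was lower there. Only *Notch4* did not overlap between the populations, an order that 5.18% of all genes showed. The call of *Jag1* was lost without any 1 of CD44Neg replicates 4, 5, 6, 8, 9 and 10 or CD44LowKitPos replicates 17 and 18, with adjusted p-values of 0.011 to 0.0879. The calls of *Notch1* (0.0454) and *Dll4* (0.0285) were lost without CD44LowKitPos replicate 17, and that of *Notch1* also without replicate 18 (0.0277) or CD44Neg replicate 8 (0.012). Without CD44LowKitPos replicate 19 the log2 fold changes were −3.09 for *Notch1*, −5.43 for *Notch4*, −4.52 for *Dll4* and −5.00 for *Jag1*. That fit dropped E9.5 from both populations and compares E10 alone. Without replicate 17 the log2 fold change of *Jag1* was −4.72. Limma voom called *Notch4* alone of the 4, and *Notch1* was also not called in a fit of only the libraries compared (adjusted p = 0.0106). Endothelial markers summed to 713 to 1646 in these CD44LowKitPos libraries and 2684 to 4548 in the CD44Neg ones, and haematopoietic markers to 446 to 1279 and 6.69 to 40.2. Their part in these differences was not tested.

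CD44High was compared with the endothelial populations at E11, with 3 libraries in each group. Against CD44LowKitNeg, 7 of the 8 members were called, 1 higher and 6 lower, where 19.5% of all genes were called, 10.6% higher and 8.81% lower. *Notch2* rose from 14.3 ± 9.25 to 132 ± 71.4 normalized CPM (log2 fold change 3.21, SE 0.70, edgeR adjusted p = 0.00158). *Notch1* fell 19.8 times (−4.32, SE 0.54, adjusted p = 6.27e-06), *Notch4* from 67.4 to 0.643 normalized CPM (−6.58, SE 0.71, 1.06e-06), *Jag1* 19.7 times (−4.31, SE 0.79, 3.5e-04) and *Jag2* 31.3 times (−4.98, SE 1.07, 0.00141). *Notch4* had only 7, 0 and 2 counts in the CD44High libraries, and their mean level is below the mean limit of 3 counts per library, 0.736, so the size of its fall is uncertain. With all CD44High libraries at 0, *Dll4* was at least 214-fold lower and *Dll1* at least 26.2-fold lower when the mean limit of 3 counts per library stood for 0 (edgeR adjusted p = 1.93e-07 and 0.00166). *Notch3* was at 4.20 against 49.5, with no overlap, and did not pass (−3.56, SE 1.26, adjusted p = 0.0379). Without CD44High replicate 21 the log2 fold changes were −5.90 for *Jag1* and −6.34 for *Jag2*, and without CD44High replicate 20 that of *Notch4* was −7.99. Limma voom gave −5.19 for *Jag1* and −5.77 for *Jag2*. The 7 members other than *Notch2* lay lower in every CD44High library, an order that 19.5% of all genes showed. The members' median log2 fold change was −4.65, or −4.52 with the 2 ligands at their limits, against 0.049 over all genes. Endothelial markers summed to 13.9 to 74.0 in CD44High and 6875 to 8226 in CD44LowKitNeg at E11, and their part in the 6 falls was not tested. In a fit of only these 6 libraries, the calls of *Notch2* (adjusted p = 0.0193), *Jag1* (0.0118) and *Jag2* (0.0135) were lost, while *Notch3* was called (0.0077), as it was by DESeq2's Wald test (0.00438) and limma voom (0.00315).

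Against CD44Neg, CD44High was called for 5 members, 1 higher and 4 lower, where 10.8% of all genes were called, 4.03% higher and 6.77% lower. *Notch2* again rose (15.7 ± 4.60 to 132 ± 71.4, log2 fold change 3.08, SE 0.69, edgeR adjusted p = 0.00351). *Notch1* (−3.63, SE 0.53, 4.96e-05) and *Notch4* (−5.37, SE 0.68, 1.01e-05) fell, *Dll4* was at least 120-fold lower (5.76e-07) and *Dll1* at least 29-fold lower (0.00248). Without CD44High replicate 20 the log2 fold change of *Notch4* was −6.73. *Jag2* was lower in every CD44High library, at 1.25 against 11.2 (−3.17, SE 1.001), but was not called by edgeR (adjusted p = 0.0313), while DESeq2's Wald test called it (0.003). The share of all genes in that order is not given here. *Jag1* was the ligand with the smallest difference, at 49.6 ± 57.7 in CD44High and 59.4 ± 34.8 in CD44Neg. Its log2 difference of −0.27 (SE 0.70, adjusted p = 0.858) changed sign without CD44Neg replicate 3 (0.31) or CD44High replicate 22 (0.21). The call of *Notch2* was lost without any 1 of CD44Neg replicates 1, 2 and 3 or CD44High replicates 20 and 21 (adjusted p = 0.0143 to 0.0255), with a log2 fold change of 2.72 to 3.26, and that of *Dll1* without CD44High replicate 20 (0.0119) or 21 (0.0105). Macrophage markers were high in the same libraries, with sums of 1683, 4525 and 3852 in replicates 20, 21 and 22 against 179, 168 and 49.8 normalized CPM of the receptor. Their part in the *Notch2* level was not tested.

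No stage held both CD44High and CD44LowKitPos, so this difference also holds the stage. *Dll4* was the 1 member called (at least 17.2-fold lower in CD44High, edgeR adjusted p = 6.11e-04), where 3.75% of all genes were called. Without CD44LowKitPos replicate 19 the limit was 3.21-fold and it was not called (adjusted p = 0.0103), nor was it by limma voom (0.0168). *Notch2* was at 132 against 43.2 and did not pass (1.63, SE 0.65, adjusted p = 0.157).

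**Figure D3:**
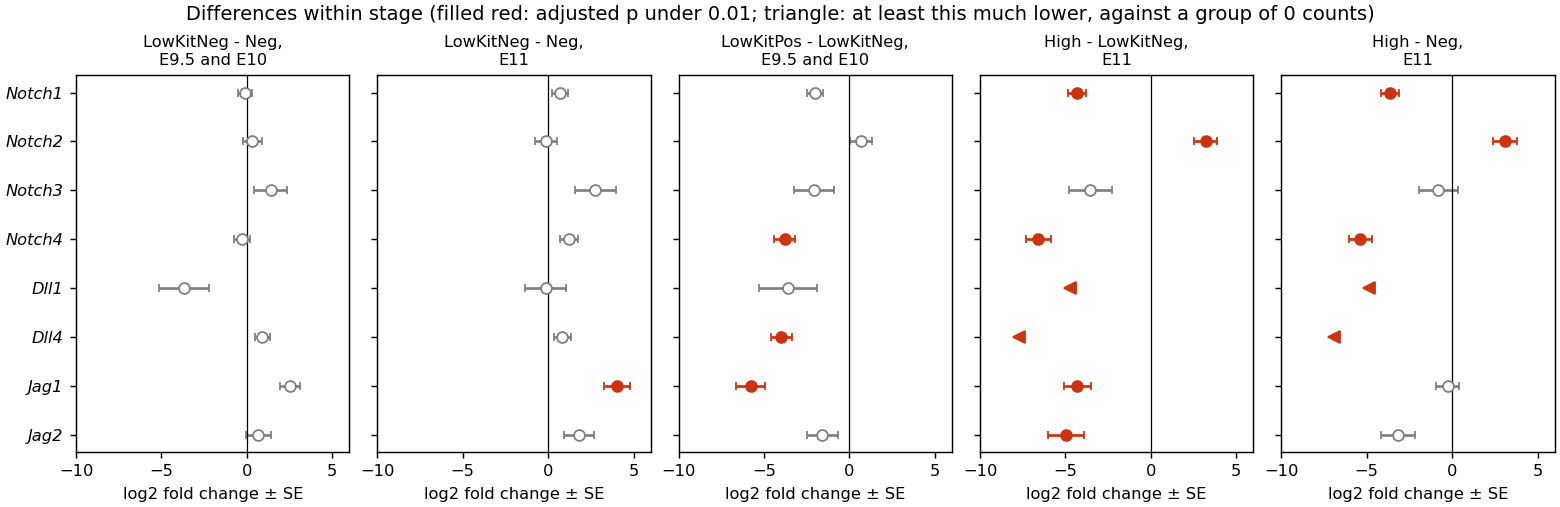
Log2 fold changes (horizontal axes) of the 8 members (rows) in 5 comparisons within stage, with bars of 1 SE, filled red where the adjusted p was under 0.01, and triangles at the smallest decrease allowed where CD44High had 0 counts. *Jag1* is the member called between the endothelial populations at E11, and *Notch2* is the sole member to the right of 0 in the CD44High panels.

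Stage was examined within each endothelial population. Each stage carries its own dates in the labels, so stage and date cannot be told apart. In CD44LowKitNeg, *Notch1*, *Notch3*, *Notch4*, *Dll1* and *Jag1* were higher in each of the 3 E11 libraries than in each of the 3 earlier ones, which is 5 of 8 members where 10.4% of all genes showed that order. None was called by edgeR, where 1.62% of all genes were, and none by DESeq2's Wald test or limma voom. *Dll1* came nearest, at 19.3 against 1.93 normalized CPM (log2 fold change 4.22, SE 1.39, edgeR adjusted p = 0.0994). An unadjusted edgeR p under 0.05 was found for 3 of 8 members and for 2498 of all 12949 genes. Endothelial markers summed to 6875 to 8226 in the E11 and 3258 to 4456 in the earlier CD44LowKitNeg libraries, and the haematopoietic markers to 4.49 to 16.1 against 83.9 to 264. In CD44Neg, *Notch1* (165 against 86.8) and *Dll4* (88.5 against 32.4) were higher in every E11 than in every E9.5 library, 2 of 8 members against 8.93% of all genes. Again none was called by edgeR, where 0.0463% of all genes were, nor by DESeq2 or limma voom. Before adjustment, 2 of 8 members and 1706 of all 12949 genes had an edgeR p under 0.05. Endothelial markers of CD44Neg summed to 4666 to 5324 at E11 and 2684 to 3476 at E9.5. The part of the markers in these stage differences was not tested. *Jag1* was at 59.4 at E11 and 99.3 at E9.5 in CD44Neg (−0.74, SE 0.66, adjusted p = 0.73). The difference between the endothelial populations was not shown to depend on stage for any member. In the interaction, 0 members were called by edgeR, DESeq2 or limma voom, while edgeR called 0.116% of all genes. Before adjustment, 0 members and 1310 of all 12949 genes had an edgeR p under 0.05. The smallest p was that of *Notch4* (1.48, SE 0.71, p = 0.0515 in the edgeR fit, adjusted p = 0.497).

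Levels were compared between members after division by the exon length of each gene, as normalized CPM per kilobase. These lengths come from GENCODE M21, which may differ from the annotation that the counts were made with. *Notch1* made up a median of 60.1% of the receptor signal per kilobase in CD44Neg and 50.2% in CD44LowKitNeg, followed by *Notch4* with 23.4% and 25.9%. *Notch3* took 6.80% to 18.2% in CD44LowKitNeg and 0% to 10.3% in CD44Neg. *Notch2* took 74.1% and 72.9% in the E10 CD44LowKitPos libraries, 33.1% in the E9.5 library, and 75.4% to 95.5% in CD44High. CD44Neg replicate 6 was the endothelial library with the most *Notch2*, at 57.2%, against 5.02% to 26.2% in the other 9 of its population. The leading receptor was thus *Notch1* in 15 of 16 endothelial libraries and *Notch2* in 5 of 6 Kit-positive or CD44High libraries.

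Among the ligands, *Jag1* took 67.8% to 84.9% of the signal per kilobase in CD44LowKitNeg and 16.8% to 74.6% in CD44Neg. The ratio of *Jag1* to *Dll4* per kilobase was 2.63 to 6.54 in CD44LowKitNeg and 0.263 to 5.16 in CD44Neg. The CD44Neg ratio was 0.943 to 5.16 at E9.5, 0.955 to 1.63 at E10 and 0.263 to 0.819 at E11, so *Dll4* exceeded *Jag1* in all 3 E11 CD44Neg libraries and *Jag1* exceeded *Dll4* in every CD44LowKitNeg library of any stage. The 4 ligands summed to 100.3 to 236 normalized CPM per kilobase in CD44LowKitNeg and 15.7 to 46.5 in CD44Neg, without overlap. The sum was 32.0 in the E9.5 CD44LowKitPos library, 2.32 and 2.48 in the E10 ones, and 4.93, 20.1 and 1.04 in CD44High. Receptor sums moved less, with 9.05 to 20.7 in CD44Neg, 13.5 to 37.9 in CD44LowKitNeg, 5.16 to 9.80 in CD44LowKitPos and 6.13 to 17.9 in CD44High. These shares and sums are descriptions and carry no test.

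**Figure D4:**
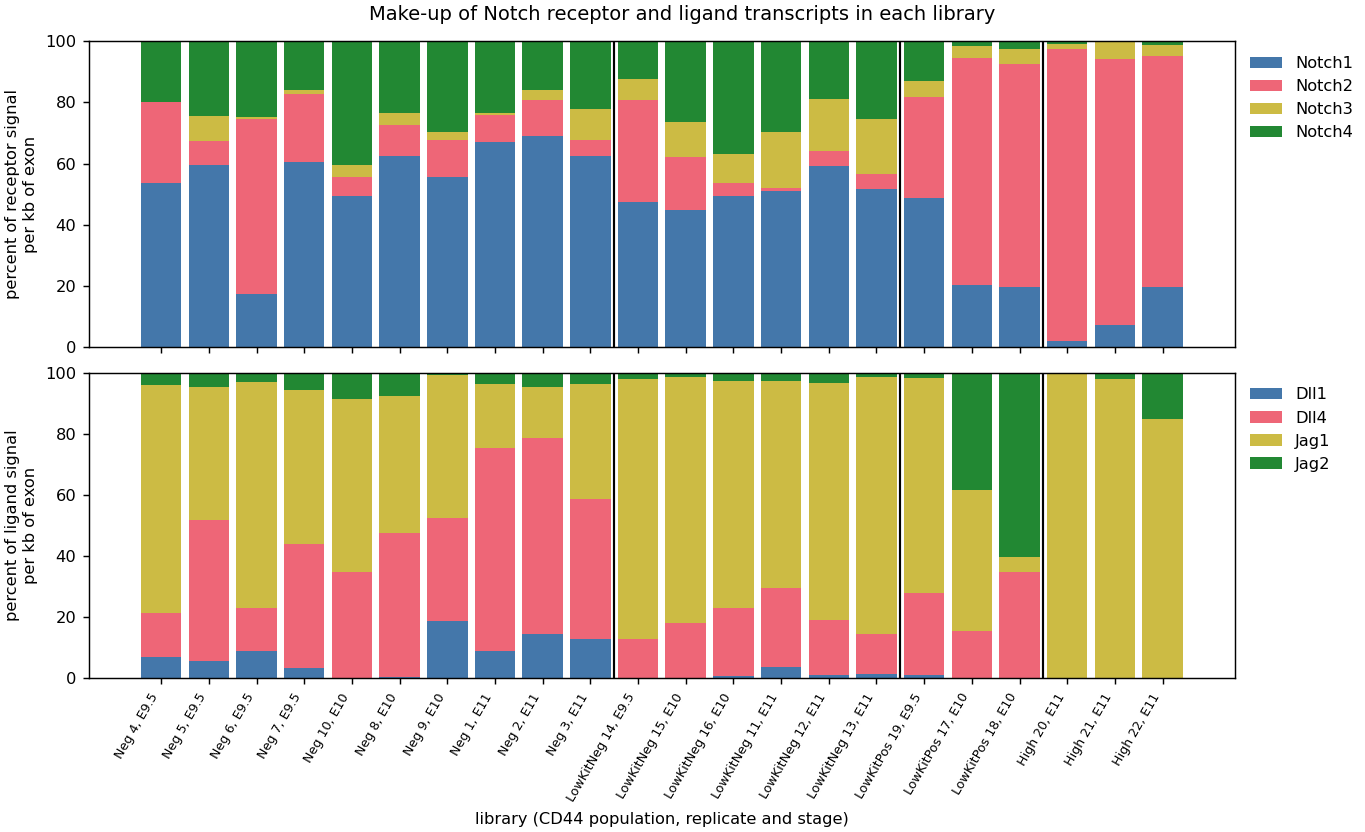
Percent of the receptor signal (upper panel) and ligand signal (lower panel) per kilobase of exon held by each member, with 1 stacked bar per library in order of population and stage. *Notch1* leads in 15 of 16 endothelial libraries and *Notch2* in 5 of the 6 others, and *Jag1* takes 67.8% to 84.9% of the ligand signal in CD44LowKitNeg.

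A list of 41 other Notch pathway genes (further ligands, sugar-transferring and cutting enzymes, nuclear partners, inhibitors and targets) was counted in the same fits. Between the endothelial populations over 16 libraries, 3 of 34 tested rose in CD44LowKitNeg and 0 fell. They were the target *Hey2* (9.85 to 169 normalized CPM, log2 fold change 4.10, SE 0.54, edgeR adjusted p = 3.57e-05), the target *Hey1* (95.3 to 334, 1.81, SE 0.23, 2.32e-05) and *Adam10*, which encodes the protease that makes the first cut in the bound receptor (349 to 759, 1.13, SE 0.17, 1.61e-04). The share called was 8.82%, near that of all genes. *Hes1*, another target, was at 88.2 against 74.5 (adjusted p = 0.688), and *Nrarp*, a target that dampens the signal, at 42.8 against 19.5 (adjusted p = 0.0386). *Hey2* was also the 1 pathway gene of 37 (2.7%, against 3.64% of all genes) called at E11 (221 against 4.74, adjusted p = 0.00459). It was again the 1 of 37 (2.7%, against 2.9%) at the Kit-positive step, where it was lower in CD44LowKitPos (7.34 against 116, adjusted p = 0.0021). At E9.5 and E10 between the endothelial populations 0 of 37 were called, against 1.41% of all genes.

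In CD44High against CD44LowKitNeg, 8 of 37 pathway genes were called, 1 higher and 7 lower. The 7 were the targets *Hes1* (98.7 to 12.7), *Hey1* (357 to 1.94) and *Hey2* (221 to 2.05), the coactivator *Maml2* (31.5 to 4.09), the inhibitor *Numb* (97.3 to 27.2), *Mfng*, whose product adds sugars to Notch (80.8 to 31.4), and *Ncstn*, a subunit of the gamma-secretase that makes the second cut (194 to 83.0). *Dtx4*, a ubiquitin ligase gene of the pathway, was the 1 that rose, from 0.129 to 19.9. Against CD44Neg, 5 fell (*Hes1*, *Hey1*, *Maml2*, *Mfng* and *Numb*) and 1 rose, *Rbpj*, the gene of the nuclear partner itself (18.3 to 58.7, log2 fold change 1.68, SE 0.43, edgeR adjusted p = 0.00901). The called shares were 21.6% and 16.2%, against 19.5% and 10.8% of all genes.

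For each member, the 3 genes with the most similar profile were found by Pearson's r of log2 CPM over the 22 libraries. Libraries of the same population share these profiles, so r describes the populations and carries no p. *Dll4* was nearest to *Unc5b* (r = 0.978), *Tinagl1* (0.975) and the arterial connexin gene *Gja5* (0.973). *Notch4* was nearest to *Hdac7* (0.956), *Sema6d* (0.956) and *Dchs1* (0.954), and *Notch1* to *Plec* (0.951), the integrin gene *Itga5* (0.95) and *Hip1* (0.944). *Jag1* had *Kank1* (0.909), the transcription factor gene *Foxc2* (0.904) and *App* (0.885), and *Jag2* had *Pik3r3* (0.903), *Asap2* (0.894) and *Rgs3* (0.874). The remaining profiles had looser neighbours. They were *P4ha3* (0.89), *Ypel3* (0.868) and *Pld1* (0.857) for *Notch3*, *Mrpl57* (0.867), *Mis18a* (0.852) and *Cetn2* (0.847) for *Notch2*, and *Col23a1* (0.856), *Pde8a* (0.852) and *Lamc1* (0.845) for *Dll1*.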

How the data were processed

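Bulk RNA-seq of 25 sorted cells per library was made with SMART-Seq2 (14 cycles of preamplification) and Nextera. The authors clipped adaptors with FASTX, mapped reads with RNA STAR and obtained raw counts per gene with htseq-count, and the deposited values are these whole-number counts of 24454 gene symbols, without normalization. The submitters' processing notes name mm10, FastQC and HTSeq. The annotation, tool versions and strand setting are not given in the sources used here. All 22 columns were assigned to libraries by their labels, and 0 were left over.

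Tests were run in edgeR 4.0.16 (R 4.3.3), with DESeq2 1.42.0 and limma 3.58.1 for alternatives. Figures used matplotlib 3.10.9 and tables pandas 2.3.3, both under Python 3.11.15. Genes were filtered with filterByExpr (minimum count of 10, total of 15), scaled by TMM and tested with edgeR's quasi-likelihood test (prior count of 0.125, Benjamini-Hochberg adjustment), and called at an adjusted p under 0.01. All 8 members passed the filter in both fits, of 11022 genes in 16 libraries and of 12949 genes in 22 libraries with 9 population and stage groups. SEs are the log2 fold change divided by the square root of F. Profiles were compared as log2 CPM (prior count of 2). The steps were tested on simulated data in which 200 genes changed by 2 or 3 on the log2 scale. Of these, 140 were called over 16 libraries. Between the endothelial populations 72 were called at E11 and 91 at E9.5 and E10. At the Kit-positive step 78 were called, and 82 in CD44High against CD44LowKitNeg. Changes of this size were thus often not called. The genes named are the 8 members, called genes of the pathway list together with *Hes1* and *Nrarp*, and the 3 most similar genes per member. *Hes1* and *Nrarp* were named for the endothelial comparison after their values were seen. The members and lists were chosen with earlier results of these data known. Alternatives were other scalings and tests, no filter, no *Rn45s*, other covariates, samples and thresholds, and leaving out each library in turn. The single-cell data of the study were not analysed here.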

Additional observations from a re-analysis of the deposited data

Results flagged for a closer look

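*Notch2* in CD44Neg replicate 6 (E9.5) was at 61.1 normalized CPM, far from the other 9 CD44Neg libraries at 9.59 to 30.1. The same library had the lowest *Notch1* of its population, at 24.6, and the highest *Jag1*, at 175. It also had the fewest genes with counts among the CD44Neg libraries (10825, against 11307 to 11993), an *Rn45s* share of 1.92% against 9.11% to 19.3%, and 61.5 to 86.3 chi-square units per degree of freedom from its E9.5 replicates, which differed by 17.4 to 20.6 among themselves. The cause was not tested. A total of 16 groups were examined, for the 8 members in the 2 endothelial populations, and 1 was set apart in this way, where chance alone gives about 1 in 20.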

How the results depend on the processing

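Of the 11 comparisons, the count of members called kept within 1.5 times of its value under other scalings (DESeq2's size factors, upper quartile), without *Rn45s* and, for the comparison over 16 libraries, with stage as a covariate or all 22 libraries fitted by population. With no filter on low counts, 1 member (*Jag1*) was called between the endothelial populations at E9.5 and E10 and 2 (*Dll4*, *Jag1*) between CD44High and CD44LowKitPos. DESeq2's Wald test called 3 members over 16 libraries and 1 at E9.5 and E10. Limma voom called 1 at E9.5 and E10, 1 between CD44LowKitPos and CD44Neg and 0 between CD44High and CD44LowKitPos. Fits of only the libraries compared called 1 at E9.5 and E10, 0 between CD44LowKitPos and CD44LowKitNeg and 0 between CD44High and CD44LowKitPos. At an adjusted p under 0.05, 4 members were called over 16 libraries and 1 at E9.5 and E10.

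Leaving out each library in turn gave 1 to 2 members called over 16 libraries (2 without CD44Neg replicate 3 or CD44LowKitNeg replicate 14), 0 to 1 at E11, 1 to 4 between CD44LowKitPos and CD44LowKitNeg, 1 to 4 between CD44LowKitPos and CD44Neg, 3 to 5 between CD44High and CD44Neg and 0 to 1 between CD44High and CD44LowKitPos. Against CD44LowKitNeg, CD44High kept 7 each time. Where a stage was left with 1 library, that library was assumed to vary like the other groups. CD44LowKitNeg replicate 14 and CD44LowKitPos replicate 19 are the sole E9.5 libraries of their populations. Without either of them, comparisons that take stage into account dropped E9.5 from every population compared, so their early part rests on E10 alone.

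No called member changed direction under any alternative run. Among differences that were not called, *Dll4* in the interaction turned to 0.017 with upper-quartile scaling, *Notch1* at E9.5 and E10 to 0.061 with limma voom and *Notch2* over 16 libraries to 0.12 with stage as a covariate. Without single libraries, log2 fold changes of CD44LowKitNeg against CD44Neg ran from −0.91 to 0.11 (*Dll1*, 16 libraries), −0.46 to 0.22 (*Notch2*, 16 libraries), −0.70 to 0.14 (*Dll1*, E11), −0.45 to 0.35 (*Notch2*, E11), −0.27 to 0.13 (*Notch1*, E9.5 and E10), −0.21 to 0.69 (*Notch2*, E9.5 and E10) and −0.43 to 0.075 (*Notch4*, E9.5 and E10), and in the interaction from −0.41 to 0.15 (*Dll4*) and −0.81 to 0.13 (*Notch2*). *Notch3* ran from −1.16 to 0.12 (CD44LowKitPos against CD44Neg), −1.88 to 0.56 (CD44High against CD44Neg), −0.49 to 0.88 (CD44High against CD44LowKitPos) and −0.19 to 3.50 (CD44Neg, E11 against E9.5), and *Jag1* from −1.81 to 0.31 (CD44High against CD44Neg). The cause was not tested.

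DESeq2's size factors moved the median of all genes by 0.11 on the log2 scale at E11 between the endothelial populations and by −0.12 between CD44High and CD44LowKitNeg. No paired analysis was possible because the replicate numbers of the labels are not shared between groups. Groups of 1 to 4 libraries per stage limit what differences can be detected, and values under 3 counts are at the limit of depth.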
